A study of Mus musculus with 6 samples.

Results

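Cytotoxic granule and killing genes were followed through the accessible regions that lie at them in mouse CD8+ T cells: Gzma, Gzmb, Gzmc, Gzmk, Prf1, Nkg7, Fasl and Srgn. A region of the count matrix was taken where it overlapped the span of one of these genes, or where the nearest end of any protein-coding gene belonged to one of them and lay within 50 kb (genome build mm10, RefSeq genes). This gave 20 of 24605 regions, at 5 of the 8 genes. Fasl had 8 regions, Gzmb 6, Srgn 3, Prf1 2 and Nkg7 1, and the matrix held none for Gzma, Gzmc and Gzmk. The rule ties a region to a gene by position only, so a region between genes may act on another gene.

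Accessibility was measured by ATAC-seq, in which a transposase cuts open chromatin and the sequenced fragments mark the cut sites. All cells came from wild-type (WT) mice and were taken from pancreas, spleen and lymph nodes, and 50000 cells purified by FACS entered each library. The control group and the palmitate group had 3 libraries each, and the palmitate group received 100 µM of this saturated fatty acid for 48 hours in complete T cell medium. The labels name neither the control vehicle nor an activation step, and their treatment text, which names palmitate, is the same for all 6 libraries. The groups follow the titles and the treatment label. Whether a group's libraries are separate mice or cultures is not stated, and the p-values here therefore cover the spread among these libraries alone, which may be technical. In bulk cells, fewer cells with an open region and a less open region in each cell cannot be told apart.

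Cytotoxic T cells kill by releasing granules onto a target cell and by displaying death ligands. In the granules, serglycin, the proteoglycan encoded by Srgn, holds granzymes in a condensed matrix. Perforin, encoded by Prf1, forms pores that let granzymes into the target, where granzyme B (Gzmb) cleaves caspases and their substrates. Granzyme A (Gzma), granzyme C (Gzmc) and granzyme K (Gzmk) are further serine proteases of these granules. Nkg7 is a membrane protein of the granules with a part in their release, and Fas ligand (Fasl) triggers the death receptor Fas.

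The promoters of Gzmb, Nkg7 and Prf1 are shown because they carry the gene-end results of the granule genes. Each run covers 250 bases before to 50 after a RefSeq start site (RefSeq, GRCm38.p6), 5′ to 3′ on the strand of the gene. The windows are chr14:56262285-56262584 on the minus strand for Gzmb, chr7:43436888-43437187 on the plus strand for Nkg7, and chr10:61297586-61297885 on the plus strand for Prf1. Capitals mark matches, on either strand, to the motifs searched, which were RUNX (TGTGGT), T-box (AGGTGTGA), AP-1 (TGANTCA), ETS (AGGAAGT), NFAT (GGAAAA), CREB (TGACGTCA) and E-box (CACCTG).
Gzmb: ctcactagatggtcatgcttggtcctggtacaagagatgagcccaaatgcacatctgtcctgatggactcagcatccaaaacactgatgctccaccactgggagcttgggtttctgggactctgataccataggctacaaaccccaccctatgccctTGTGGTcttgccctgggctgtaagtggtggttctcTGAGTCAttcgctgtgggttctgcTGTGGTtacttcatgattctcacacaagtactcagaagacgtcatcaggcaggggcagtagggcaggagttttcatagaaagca
Nkg7: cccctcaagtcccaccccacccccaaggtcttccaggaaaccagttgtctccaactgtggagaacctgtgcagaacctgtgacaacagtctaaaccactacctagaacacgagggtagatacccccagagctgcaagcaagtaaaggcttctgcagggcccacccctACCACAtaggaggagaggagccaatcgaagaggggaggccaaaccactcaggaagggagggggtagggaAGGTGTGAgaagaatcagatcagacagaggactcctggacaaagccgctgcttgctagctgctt
Prf1: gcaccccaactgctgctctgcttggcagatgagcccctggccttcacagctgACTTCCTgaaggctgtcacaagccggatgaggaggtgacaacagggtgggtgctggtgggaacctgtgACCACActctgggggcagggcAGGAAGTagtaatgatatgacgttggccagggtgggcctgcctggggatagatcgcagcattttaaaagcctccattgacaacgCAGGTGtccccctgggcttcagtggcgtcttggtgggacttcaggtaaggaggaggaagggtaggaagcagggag

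In the Gzmb window the capitals are 2 RUNX matches, 93 to 88 and 34 to 29 bases before the start, with 1 AP-1 match between them, 58 to 52 bases before it. The Nkg7 window held 1 RUNX match, read on the other strand, and 1 T-box match 14 to 7 bases before the start. The Prf1 window held 2 ETS matches, 1 RUNX match and 1 E-box match. Of the 9 windows listed for the 8 genes (Srgn has 2 start sites), 6 held the RUNX letters, against 16.8% of 32851 RefSeq promoter windows of this length. The T-box letters were in 1 of the 9 windows, against 1.28% of all, and the AP-1 letters in 1, against 7.81%. ETS was in 3 (9.35% of all), NFAT in 3 (23.4%), E-box in 2 (20.2%) and CREB in 1, that of Gzmc (1.79%). None of these motifs share bases in the 3 windows printed. A match is a description of the letters and not evidence of binding.

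Libraries held 2219136 to 3089230 counts in regions, with a median of 46 to 62 counts per region. Values are given as CPM (the count scaled to a common library size) with TMM factors, and a change is the log2 of palmitate over control from edgeR's quasi-likelihood F-test, called at an adjusted p under 0.05. Control 2 stood apart in a chi-square statistic over the tested regions, divided by its degrees of freedom. Control 2 gave 2.04 against control 1 and 2.03 against control 3, and controls 1 and 3 gave 1.20. Less far apart, palmitate 2 gave 1.49 against palmitate 1 and 1.40 against palmitate 3. Palmitate 1 and 3 gave 1.19. More peaks were listed in control libraries (22359 to 27122) than in palmitate libraries (20201 to 21502). A second fit with trended offsets removed each library's smooth dependence of counts on region strength, and its values stand beside the main ones where the call differs.

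All 20 regions passed the count filter, as did 24316 of the 24605 in all. After palmitate, 5 of the 20 were lower (4 at Gzmb and the 1 at Nkg7), 1 was higher (near Fasl), and 14 did not pass. Of all tested regions, 12.7% were called lower and 11.9% higher. The median log2 fold change of the 20 was -0.20, against -0.05 over all tested regions. With trended offsets 2 of the 20 were lower and 0 higher, against 4.17% and 2.3% of all, and the median was -0.0078 against 0.019. With those offsets, 1 of the 2 lower regions lay 21.9 kb from Gzmb and the other was the Nkg7 promoter.

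The background differed by position. Of all regions within 1 kb of a gene end, 2.47% were lower and 25% higher, with a median log2 fold change of 0.14. The 4 gene-end regions of the killing genes were the promoters of Gzmb, Nkg7, Prf1 and Fasl, of which 2 were lower and 0 higher, with a median of -0.32. With trended offsets 1.42% of gene ends were lower and 2.69% higher, and of the 4 only Nkg7 passed. Of the 13 intergenic regions, 3 were lower and 1 was higher, against 18.4% and 2.66% of all intergenic regions. With trended offsets 1 was lower and 0 were higher, against 5.71% and 1.93%. Of the 3 regions inside a gene, all in Srgn, 0 passed, against 19.6% of such regions lower and 4.3% higher. With trended offsets 0 passed too, against 6.04% and 2.14%. One of these Srgn regions covers a RefSeq start site, and so is a promoter too. It counts as inside the gene because it lies 13.8 kb from the nearest gene end. Its log2 fold change was 0.25, opposite in sign to the median of the gene-end promoters, and did not pass (adjusted p = 0.204).

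**Figure D1:**
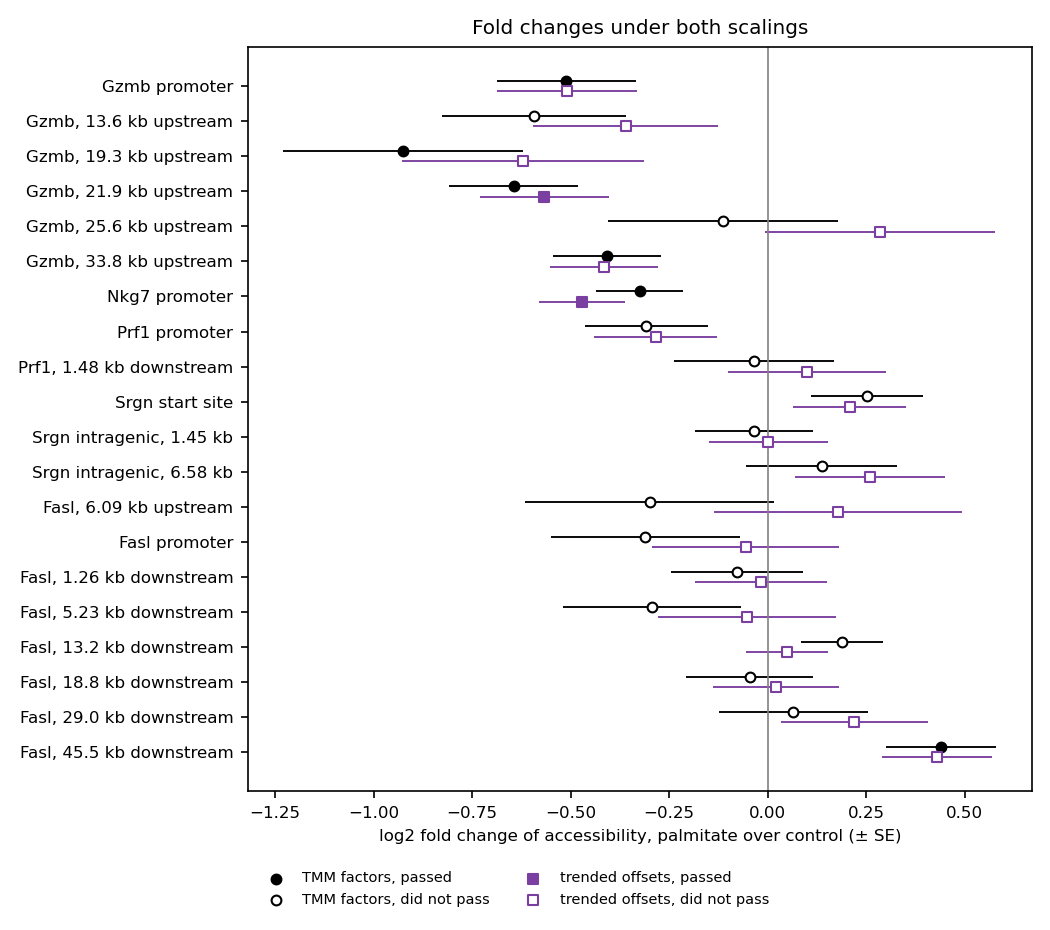
Log2 fold change, palmitate over control, of the 20 regions, with bars of 1 SE, from TMM factors and from trended offsets. The Gzmb and Nkg7 regions that passed lie left of zero, and the Fasl region 45.5 kb downstream lies right of it.

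At Gzmb, 5 of 6 regions had fold changes of at most -0.41 on the log2 scale, and 4 passed. The promoter (chr14:56262050-56262721, minus strand, covering the whole sequence printed above) was measured at 48.8, 27.0 and 50.7 CPM in controls 1 to 3 and at 25.2, 29.2 and 33.4 CPM in palmitate 1 to 3. Controls 1 and 3 were above every palmitate library, and control 2 lay inside the palmitate range. The means were 42.1 ± 13.2 and 29.3 ± 4.07 CPM (SD, n = 3), from 81 to 149 counts in a control library and 64 to 87 in a palmitate library. The log2 fold change was -0.51 ± 0.18 (SE, adjusted p = 0.0313), and with trended offsets it was -0.51 with an adjusted p of 0.0785.

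The call at the Gzmb promoter depended on single libraries. It did not hold when control 1 (adjusted p = 0.129), control 3 (0.288), palmitate 1 (0.14) or palmitate 2 (0.0734) was left out, in limma-voom (0.0834) or in the DESeq2 Wald test (0.145). Without control 2, the library that stood apart, the log2 fold change was -0.76 (adjusted p = 0.000108).

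The other 5 regions of Gzmb all lay upstream of the promoter, 13.6 to 33.8 kb from the gene. Such upstream regions can hold enhancers, but no measurement here says what they act on. The region 21.9 kb upstream (chr14:56284261-56284792) was at 30.1, 30.9 and 33.3 CPM in the controls and at 19.3, 21.4 and 19.6 CPM with palmitate. The groups did not overlap, and control 2 lay with the other controls. The means were 31.4 ± 1.68 and 20.1 ± 1.14 CPM (SD, n = 3), which is 36.0% lower, and the log2 fold change was -0.64 ± 0.16 (SE, adjusted p = 0.00425). With trended offsets it was -0.57 (adjusted p = 0.0339). Among the 20 regions it had the smallest adjusted p, and it passed in 17 of 22 alternative fits, the 5 exceptions being fits with trended offsets that left out 1 library.

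The Gzmb region with the highest mean CPM lay 33.8 kb upstream (chr14:56296177-56297294) and was 1118 bp wide, the widest of the 20. Per length it was not the strongest, at 38.4 CPM per kb in control against 62.7 at the promoter. The wide region was at 47.9, 41.3 and 39.4 CPM in the controls. With palmitate it was at 32.3, 33.0 and 31.1 CPM, so that the groups did not overlap. The means were 42.9 ± 4.47 and 32.1 ± 0.966 CPM (SD, n = 3), and the log2 fold change was -0.41 ± 0.14 (SE, adjusted p = 0.0280). With trended offsets the log2 fold change was -0.42 and the adjusted p 0.0622. It did not pass without control 1 (0.133) or without palmitate 1, 2 or 3 (0.0648, 0.0591 and 0.0942). Nor did it pass in the DESeq2 Wald test (0.165).

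The weaker region 19.3 kb upstream (chr14:56281635-56281906) had 39, 22 and 53 counts in the controls and 25, 16 and 18 with palmitate. This was 17.0, 7.32 and 18.0 CPM against 9.85, 5.44 and 6.90 CPM, and control 2 again lay inside the palmitate range. Its means were 14.1 ± 5.90 and 7.40 ± 2.25 CPM (SD, n = 3), and the log2 fold change was -0.93 ± 0.30 (SE, adjusted p = 0.0243). A peak was listed there in 2 control libraries and 1 palmitate library. With trended offsets the log2 fold change was -0.62 (adjusted p = 0.228). With TMM factors the region did not pass when control 1 (0.089), control 3 (0.196), palmitate 2 (0.125) or palmitate 3 (0.0933) was left out. Nor did it pass in the DESeq2 Wald test (0.1065) or in limma-voom (0.0609).

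The region 13.6 kb upstream of Gzmb (chr14:56275938-56276434) did not pass, although its groups did not overlap. It was at 20.9, 12.3 and 18.4 CPM in the controls and at 11.0, 10.9 and 11.9 CPM with palmitate, and the log2 fold change was -0.59 ± 0.23 (SE, adjusted p = 0.0613). It passed in 5 of 22 alternative fits. Without control 2 its adjusted p was 0.00776, and it also passed with total counts (0.0275) and upper-quartile factors (0.0423). With trended offsets the log2 fold change was -0.36 (adjusted p = 0.383). It did not pass in the DESeq2 Wald test (0.219), without control 1 (0.241) or without control 3 (0.195). The narrow region 25.6 kb upstream had means of 8.43 ± 2.26 and 7.70 ± 0.847 CPM (SD, n = 3), and the log2 fold change was -0.11 ± 0.29 (SE, adjusted p = 0.816). At 18 to 26 counts per library, it was among the weakest of the 20.

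**Figure D2:**
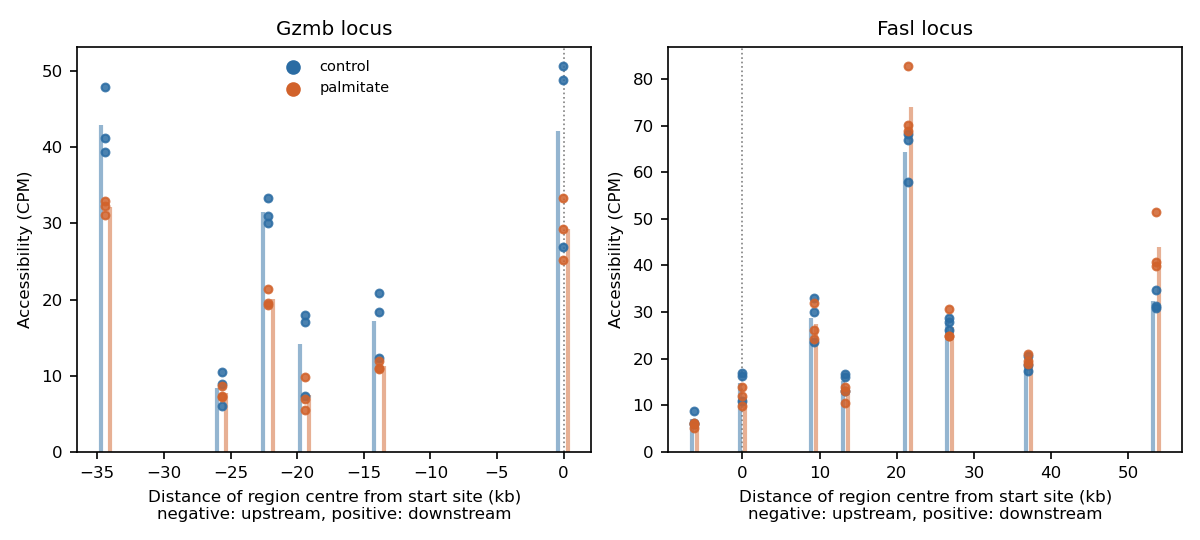
CPM of each region of Gzmb (left) and Fasl (right) by the distance of its centre from the start site in kb, with bars for group means and points for the 6 libraries. At Gzmb the palmitate points lie below the control points at -13.85, -22.19 and -34.4 kb on this axis. These regions are 13.6, 21.9 and 33.8 kb from the gene. At Fasl the palmitate points lie above the control points at 21.44 and 53.57 kb, in the regions 13.2 and 45.5 kb past the gene.

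Summed over its 6 regions, the Gzmb locus was at 175, 125 and 169 CPM in the controls and at 106, 107 and 110 CPM with palmitate. The groups did not overlap, and the means were 156 ± 27.4 and 108 ± 1.94 CPM (SD, n = 3). The log2 ratio was -0.52, with a 2-sided exact permutation p of 0.1, the smallest that 3 against 3 libraries can give. The promoter held 27.9, 21.6 and 30.0% of the locus total in the controls and 23.7, 27.3 and 30.3% with palmitate, and these shares overlapped (exact permutation p = 0.9).

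At Nkg7 the only region was its promoter (chr7:43436407-43437158, plus strand, covering 271 bases of the window printed above). It was at 89.3, 69.2 and 81.6 CPM in the controls and at 57.5, 58.4 and 74.8 CPM with palmitate. Palmitate 1 and 2 were below every control, and palmitate 3 was above control 2. The means were 80.0 ± 10.2 and 63.6 ± 9.70 CPM (SD, n = 3), from 146 to 240 counts per library. The log2 fold change was -0.32 ± 0.11 (SE, adjusted p = 0.0291), and with trended offsets -0.47 ± 0.11 (adjusted p = 0.00763). With TMM factors it did not pass when control 1 (0.143), control 3 (0.138), palmitate 1 (0.138) or palmitate 2 (0.142) was left out. Nor did it pass in the DESeq2 Wald test (0.185) or with DESeq2 size factors (0.0538). With trended offsets it did not pass without control 1 (0.0610) or without control 3 (0.0580). Per length it was the most accessible of the 20 regions in control, at 106 CPM per kb. With palmitate it was at 84.6 CPM per kb, below the Srgn start site at 93.4 CPM per kb.

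The Prf1 promoter (chr10:61297041-61297777, plus strand) covered 192 bases of the printed window and ended before the start site that the window uses. It was at 43.6, 31.6 and 33.7 CPM in the controls and at 33.1, 25.8 and 28.4 CPM with palmitate. Control 2 lay below palmitate 1, so the groups overlapped. The means were 36.3 ± 6.40 and 29.1 ± 3.70 CPM (SD, n = 3), and the log2 fold change was -0.31 ± 0.16 (SE), which did not pass (adjusted p = 0.149). The Prf1 promoter passed in 1 of 22 alternative fits, that with total counts as library sizes (0.0490). In that fit 4324 of all tested regions were lower and 1292 higher. The libraries held 74 to 100 counts each in this region. The other Prf1 region, 1.48 kb past the 3′ end, had means of 20.9 ± 6.48 and 20.7 ± 2.75 CPM (SD, n = 3), and the log2 fold change was -0.04 ± 0.20 (SE, adjusted p = 0.921).

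At Srgn, the proteoglycan of the granule matrix, 0 of 3 regions passed. The strongest (chr10:62507626-62508138, minus strand) covered the second RefSeq start site of the gene with its whole promoter window. It was at 32.7, 51.2 and 35.7 CPM in the controls and at 48.5, 53.0 and 42.2 CPM with palmitate. Controls 1 and 3 were below every palmitate library, and control 2 was again inside the palmitate range. The log2 fold change was 0.25 ± 0.14 (SE, adjusted p = 0.204), and without control 2 it was 0.48 (adjusted p = 0.00964). The other Srgn regions inside the gene had log2 fold changes of -0.03 and 0.14, with adjusted p values of 0.893 and 0.643. The upstream start site at the far end of the gene had no region in the matrix.

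**Figure D3:**
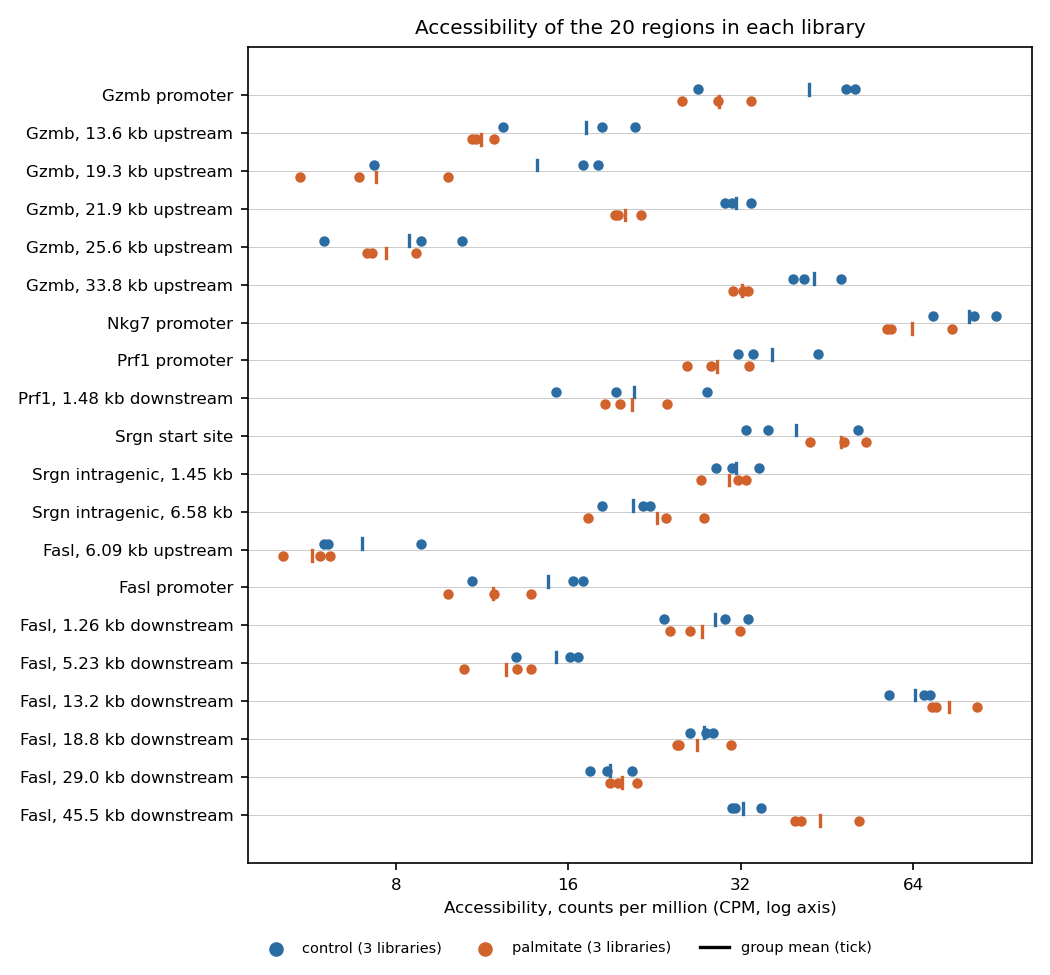
CPM of the 20 regions in each library, with a point per library and a bar at each group mean. At the promoters of Gzmb and Prf1 and at the Srgn start site, control 2 sits among the palmitate points, while 21.9 kb upstream of Gzmb the 3 controls lie together above the 3 palmitate libraries.

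Fasl, the death ligand, had 8 regions, 6 of them past its 3′ end, of which 0 were lower and 1 was higher. Its promoter (chr1:161788276-161788681, minus strand) was at 17.0, 16.3 and 10.9 CPM in the controls and at 13.8, 9.85 and 11.9 CPM with palmitate. The groups overlapped, and the log2 fold change was -0.31 ± 0.24 (SE, adjusted p = 0.366). The Fasl region with the highest CPM lay 13.2 kb downstream (chr1:161766616-161767490). It was at 58.0, 66.9 and 68.3 CPM in the controls and 82.8, 69.0 and 70.2 CPM with palmitate. Every palmitate library was above every control there, with control 3 and palmitate 2 close to each other. The means were 64.4 ± 5.62 and 74.0 ± 7.65 CPM (SD, n = 3), with a log2 fold change of 0.19 ± 0.10 (SE) that did not pass (adjusted p = 0.186).

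The region 45.5 kb downstream of Fasl (chr1:161734605-161735237) was the 1 region called higher. It was at 30.9, 31.3 and 34.7 CPM in the controls and at 39.8, 40.8 and 51.4 CPM with palmitate, with palmitate 3 the highest. The means were 32.3 ± 2.07 and 44.0 ± 6.42 CPM (SD, n = 3), and the log2 fold change was 0.44 ± 0.14 (SE, adjusted p = 0.0199). With trended offsets the log2 fold change was 0.43 and the adjusted p 0.0597. The call was lost without control 1 (0.0546) or palmitate 3 (0.161), and with total counts as library sizes (0.0903). It was also lost in the DESeq2 Wald test (0.071) and in the fit of regions in all 6 peak lists (0.0742). The same region lies farthest from the gene among those of Fasl, and a rule of 10 kb would not have included it. The other 5 Fasl regions did not pass. The one 6.09 kb upstream, the weakest of the 20, had a log2 fold change of -0.30 ± 0.32 (SE) from 14 to 26 counts per library. Those 1.26, 5.23, 18.8 and 29.0 kb downstream had -0.08, -0.29, -0.05 and 0.07. The region 5.23 kb downstream had a listed peak in 3 control libraries and 1 palmitate library.

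Over all their regions, Gzmb, Prf1 and Nkg7 had log2 ratios of -0.52, -0.20 and -0.33, and Fasl and Srgn of 0.09 and 0.14. Exact permutation p values were 0.1, 0.1, 0.2, 0.3 and 0.2 in that order, and 0.1 is the smallest these libraries allow. Of the 20 regions, 3 had palmitate below control without overlap (13.6, 21.9 and 33.8 kb upstream of Gzmb), and 2 had it above (13.2 and 45.5 kb downstream of Fasl). Of all tested regions, 21% lay lower and 17.9% higher without overlap.

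A ratio of raw counts at Gzmb to those at Fasl within a library needs no scaling between libraries, and was computed after the values above were known. It was 0.868, 0.579 and 0.805 in the controls and 0.448, 0.522 and 0.493 with palmitate. The means were 0.751 ± 0.152 and 0.487 ± 0.0372 (SD, n = 3), without overlap (exact permutation p = 0.1). Control 2 was again the control nearest to the palmitate libraries. The loci were picked with their directions known, so the ratio is a description, and 0.1 is the smallest p these libraries allow.

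Gzma, Gzmk and Gzmc had no region in the matrix, and no level is given for them here. In the peak lists of single libraries, 1 peak lay by Gzma and 3 by Gzmk, each in 1 control library, and 0 by Gzmc. Gzmb and Srgn had 1 further peak each outside the matrix, in 1 control and 1 palmitate library. Among the 20 regions, 16 overlapped a peak in all 6 lists. The score of each peak is the authors' own, and at the Gzmb promoter it was 288, 244 and 408 in the controls and 276, 317 and 298 with palmitate. The median score of a whole list was 155 to 156 in the controls and 194 to 204 with palmitate. The scores are therefore not compared between the groups.

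The rest of the killing pathway was followed at 54 further genes, each by its strongest region within 1 kb of a gene end. Such a region was tested for 38 genes, of which 1 was lower, 6 were higher and 31 did not pass. The background was the 8739 tested regions that are the strongest at the end of some gene, each counted once. Of these, 1.92% were lower and 26.4% higher, and the median log2 fold change was 0.15 both for the list and for all. With trended offsets 0 were lower and 3 higher, against 1.34% and 2.62% of all.

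Among 7 tested genes of granule contents, Gzmf was called lower and Calr higher. Gzmf, another granzyme of the Gzmb cluster on chromosome 14, had 16, 18 and 19 counts in the controls and 1, 7 and 4 with palmitate (chr14:56205725-56205913). Its means were 6.47 ± 0.492 and 1.44 ± 0.996 CPM (SD, n = 3), and the log2 fold change was -2.09 ± 0.44 (SE, adjusted p = 0.000847). With trended offsets it was -1.40 (adjusted p = 0.0601). A peak was listed there in 2 control libraries and in 0 palmitate libraries. The region may thus have entered the matrix and passed the count filter through the control group alone, and its fold change is a description. With a filter of at least 20 reads in 3 libraries, 0 pathway genes were lower. Granzyme genes of this cluster are similar to each other, and how reads matching several of them were counted is not given in the sources used here. Calr, which encodes the chaperone calreticulin, went from 254 ± 7.99 to 333 ± 12.3 CPM (SD, n = 3; log2 fold change 0.39, adjusted p = 2.70e-05). With trended offsets its log2 fold change was 0.06, which did not pass (adjusted p = 0.522).

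Of 16 tested genes of granule secretion, 4 were higher and 0 lower, a share near the 26.4% called higher among all such gene-end regions. Lyst, a regulator of lysosome size, and Dnm2, the membrane-cutting dynamin, had log2 fold changes of 0.40 and 0.39 and did not pass with trended offsets. Kif5b, a kinesin motor, went from 38.8 ± 5.13 to 53.9 ± 0.959 CPM (SD, n = 3; log2 fold change 0.47, adjusted p = 0.00555), and passed with trended offsets too (0.0392). Syt7, a calcium sensor of lysosome exocytosis, rose from 13, 6 and 16 counts to 24, 29 and 16 counts. Its log2 fold change was 0.99 ± 0.35 (SE, adjusted p = 0.0365), and 1.46 with trended offsets (0.00923). A peak was listed there in 0 control and 2 palmitate libraries, so the region may have entered the matrix through the palmitate group alone. Vamp2, a vesicle SNARE, passed with trended offsets only (log2 fold change 0.67, adjusted p = 0.0429), against 0.51 and 0.0600 with TMM factors. It is named after its values were seen.

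The genes of the core docking and priming steps did not pass. Log2 fold changes were 0.08 at Unc13d (Munc13-4, in a region shared with Wbp2), -0.24 at Rab27a, 0.02 at Stx11 and 0.23 at Stxbp2. Their adjusted p values were 0.635, 0.268, 0.904 and 0.308. Of 3 tested genes of death ligands and their receptor, Adam10, a protease that sheds Fas ligand, was higher (0.37, adjusted p = 9.17e-05), and with trended offsets it did not pass (0.532). Of 2 genes of self-protection, 5 of killing receptors and adhesion, and 5 of regulators, 0 passed in either direction. The regulators tested, Tbx21 (T-bet), Eomes, Runx3, Prdm1 and Notch1, had log2 fold changes of -0.25, 0.35, -0.01, 0.03 and 0.14.

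**Figure D4:**
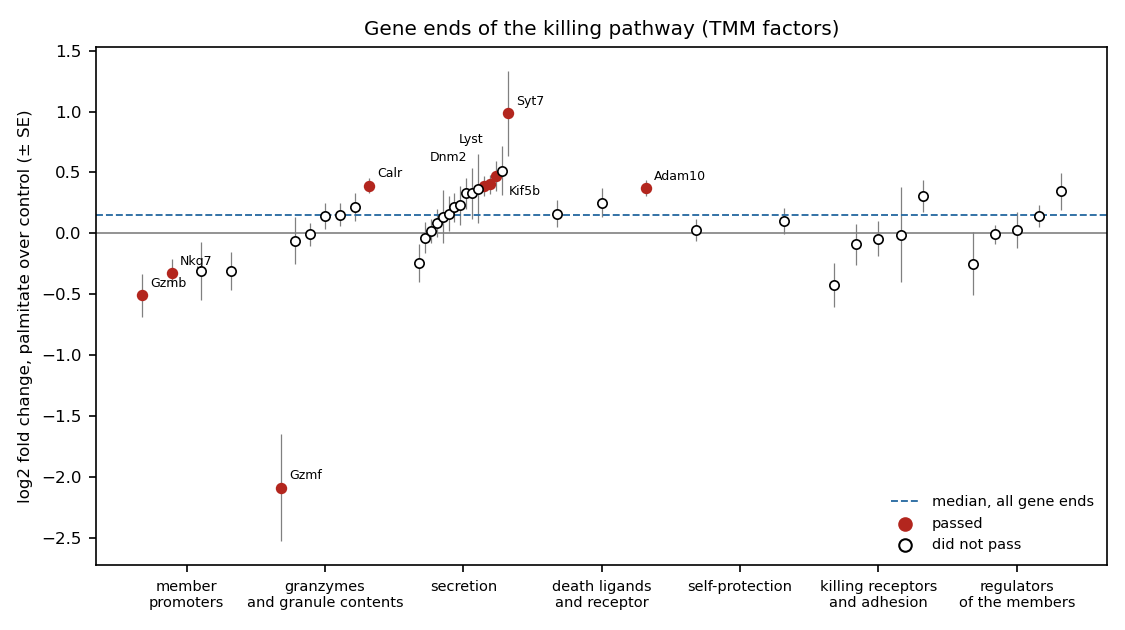
Log2 fold change, palmitate over control, with bars of 1 SE, at the 4 member promoters and at the strongest gene-end region of each of 38 other genes of the pathway, by group. The dashed line is the median of all gene ends, 0.15. The Gzmb and Nkg7 promoters and the Gzmf gene end lie below it among those that passed. The Srgn start site, which lies inside its gene span, is not shown.

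The gene ends whose CPM followed the Gzmb promoter most closely over the 6 libraries were those of Rsph3a (Pearson r = 0.984), H3c3 with H2bc3 (0.979), Dlat (0.969), Ccdc71 (0.969) and Uqcc1 (0.967), among 8200 compared. They share these libraries, and in each control 2 was below controls 1 and 3. None of the 5 was called. The r values are a description of 6 points.

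The label of CD8+ T cells was checked at marker genes. All 9 T cell markers searched, Cd8a and Cd8b1 among them, had a tested gene-end region, with sums of 364 to 405 CPM in the controls and 349 to 411 with palmitate. Of these only Thy1 passed, with a log2 fold change of -0.55 (adjusted p = 0.0108), and with trended offsets it did not (-0.49, 0.0594). The matrix held no gene-end region for any of 6 B cell markers or 4 mast cell markers, nor for Cd4 or Foxp3. Of 6 NK cell markers 1 had one (Tyrobp, shared with Hcst), with 33.6 to 40.5 CPM in the controls and 41.4 to 49.1 with palmitate, and it did not pass (adjusted p = 0.0868). Of 4 CD4 T cell markers 1 had one, Zbtb7b, at 34.9 to 51.4 and 46.5 to 73.4 CPM, and it was higher (log2 fold change 0.48, adjusted p = 0.0121), but not with trended offsets (0.40, 0.0886). Of 7 myeloid markers 3 had one, with sums of 28.3 to 37.7 and 36.0 to 42.2 CPM. Itgam among them was higher (0.91, adjusted p = 0.0151), also with trended offsets (0.00469). It had 15 to 34 counts per library, and a peak was listed there in 1 control and 2 palmitate libraries. Spi1 (0.08, adjusted p = 0.867) and Cebpa (-0.01, 0.974) did not pass. Of 5 pancreas markers 1 had one, Cela1, at 35.4 to 44.5 and 28.9 to 42.6 CPM, and it did not pass. The part of other cells in the values at the killing genes was not tested.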

How the data were processed

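ATAC-seq of 3 control and 3 palmitate libraries was used. Per the submitters' processing notes, the tools were MACS2 2.2.8, Bowtie2 2.5.1, edgeR 3.40.2, Trim Galore 0.6.10 and Picard 2.23.8, with build mm10. Which tool did what, with the Tn5 shift and the region building, is not given in the sources used here. Raw counts per region were deposited by the authors, who also gave 1 peak list per library, with a score per peak from the authors, used as given. From the counts, edgeR 4.0.16 (R 4.3.3) gave a 2-sided quasi-likelihood F-test with TMM factors (0.953 to 1.05), filterByExpr (289 regions removed) and Benjamini-Hochberg adjustment over all tested regions, called under 0.05. Trended offsets were loess fits (span 0.3) of the natural log of the count plus 0.5 on mean strength. DESeq2 1.42.0 and limma-voom (limma 3.58.1) were alternatives, with other size factors, filters, distances and each library left out. The fit was tested on simulated data. The 20 regions held 14 to 240 counts per library, which limits their precision.

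The genes, lists and motifs were chosen with earlier results of these data known. Regions were given in full where they passed, lay at a gene end, or were the strongest of their gene; of the pathway list, genes that passed (up to 12) and Unc13d, Rab27a, Stx11 and Stxbp2; and the 5 gene ends most like Gzmb's by Pearson r of log2 CPM (pseudocount 1, mean of at least 10 CPM). Same-numbered libraries of the groups did not deviate together (r = 0.00043, -0.105 and -0.027), and the numbers were not used as pairs. Such r values cannot exclude that same-numbered libraries share mice or cultures, which the labels do not state.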

Additional observations from a re-analysis of the deposited data

How the results depend on the processing

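Counts of calls moved with the scaling, the tool, the regions kept and the libraries used. Among all tested regions, lower calls were 1014 with trended offsets, 1236 in the DESeq2 Wald test and 1462 among regions in all 6 peak lists, and higher calls were 559, 1888 and 1376, and 1292 with total counts. At the killing genes, lower calls were 2 with trended offsets, 1 in the Wald test, 3 in limma-voom and 2 among the 11 regions within 10 kb. Higher calls there were 0 with total counts, with trended offsets and in the Wald test. They were also 0 among the 16 regions in all 6 lists and the 11 within 10 kb. The region called higher in the main fit lies beyond 10 kb, so that limit leaves it out. Pathway genes had 2 lower calls with total counts and 0 with trended offsets. They had 0 among the 35 with at least 20 reads in 3 libraries, and 3 higher with trended offsets. Requiring peaks above the median score left 5 regions in all 6 lists, against 16. The cause of these shifts was not tested. With the replicate block, lower and higher calls were 5 and 1 at the killing genes, as without it. Among all regions they were 2821 and 2712. The labels do not say whether the numbers pair the libraries.

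Leaving out 1 library gave 1 to 6 lower and 0 to 2 higher calls at the killing genes with TMM factors, and 0 to 5 and 0 to 1 with trended offsets. Among all regions it gave 1871 to 3391 lower and 2066 to 2774 higher with TMM factors, and 356 to 1612 and 147 to 894 with trended offsets. Pathway genes had 0 to 1 lower and 0 to 7 higher. None of the 6 called regions changed sign in any of the 131 alternative values, and 60 of these did not pass. Outside the called regions, 53 of 304 values changed sign, none past the threshold. Without leaving out a library, values that changed sign were, on the log2 scale: Fasl 29.0 kb -0.0495 (total counts) and -0.0231 (all 6 lists); Fasl 18.8 kb 0.0209, Fasl 6.09 kb upstream 0.18, Prf1 1.48 kb 0.10, Srgn 0.0019 and Gzmb 25.6 kb 0.28 (trended offsets); Prf1 1.48 kb 0.0079 (Wald). Apart from the regions, the Fasl sum was -0.0281 with total counts. Ranges on leaving out 1 library, over both scalings, were -0.15 to 0.0773 (Fasl 18.8 kb), -0.0348 to 0.26 (13.2 kb), -0.40 to 0.0511 (5.23 kb), -0.20 to 0.0976 (1.26 kb), -0.47 to 0.0567 (promoter) and -0.41 to 0.43 (6.09 kb upstream); -0.20 to 0.37 (Prf1 1.48 kb); -0.0185 to 0.43 and -0.0896 to 0.0783 (Srgn inside the gene); and -0.32 to 0.46 (Gzmb 25.6 kb).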
